A study of Mus musculus with 8 samples.

Results

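The 7 genes described here encode subunits of the GABA-A receptor, and were taken from the deposited gene table by symbol. They are the 4 alpha subunit genes *Gabra2*, *Gabra3*, *Gabra4* and *Gabra5*, the 2 beta subunit genes *Gabrb1* and *Gabrb2*, and the delta subunit gene *Gabrd*, out of 25834 genes in the table. The study asked which hippocampal transcripts depend on SAP97, a scaffolding protein of the postsynaptic density that is encoded by *Dlg1*. RNA was sequenced from hippocampal tissue of male mice, 4 control and 4 SAP97-cKO, with 1 library for each mouse. SAP97-cKO mice carried Nestin-cre+/- and were SAP97fl/fl. The Nestin promoter drives Cre in neural progenitors, so the deletion reaches neurons and glia. Controls were littermates, for which the methods list Nes-cre+/-, SAP97fl/fl and wild-type mice, and the sources used here do not say which of these each control was. They do not give the age of the sequenced mice either.

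GABA-A receptors are chloride channels opened by GABA, the main inhibitory transmitter of the adult brain. Each receptor is a ring of subunits in which alpha and beta subunits form the GABA binding sites and a gamma or delta subunit completes the ring. The alpha subunit largely sets where a receptor sits and which drugs act on it. Many receptors with a gamma subunit cluster at synapses opposite GABA release sites. Receptors with the alpha-5 subunit, which usually also hold a gamma subunit, and receptors with the delta subunit lie mostly outside synapses and carry tonic inhibition. In the hippocampus, alpha-5 is typical of pyramidal cells, and alpha-4 with delta is typical of dentate granule cells.

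The promoters of 3 members are shown because these genes carry the points made below. *Gabra5* had the highest level per length, *Gabra3* varied most between libraries, and *Gabrb2* had the smallest edgeR p of the members, with *Gabrb1* close to it (0.0564 and 0.0601, unadjusted). Each sequence is the 250 bases before an annotated RefSeq transcript start, 5′ to 3′ on the strand of the gene, in build GRCm38.p6. Capitals mark a TATA box (TATAAA) or a GC box (GGGCGG) on either strand.
Gabra5, chr7:57510060-57510309, minus strand: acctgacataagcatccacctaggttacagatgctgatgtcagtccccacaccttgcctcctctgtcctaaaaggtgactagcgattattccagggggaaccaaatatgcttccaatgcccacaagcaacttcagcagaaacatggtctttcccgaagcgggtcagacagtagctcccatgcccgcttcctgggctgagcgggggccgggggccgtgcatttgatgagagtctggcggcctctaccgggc
Gabra3, chrX:72656920-72657169, minus strand: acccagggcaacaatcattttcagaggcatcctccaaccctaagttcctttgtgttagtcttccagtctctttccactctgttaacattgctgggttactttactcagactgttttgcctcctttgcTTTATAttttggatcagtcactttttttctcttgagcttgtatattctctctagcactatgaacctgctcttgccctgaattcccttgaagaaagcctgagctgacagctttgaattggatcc
Gabrb2, chr11:42420190-42420439, plus strand: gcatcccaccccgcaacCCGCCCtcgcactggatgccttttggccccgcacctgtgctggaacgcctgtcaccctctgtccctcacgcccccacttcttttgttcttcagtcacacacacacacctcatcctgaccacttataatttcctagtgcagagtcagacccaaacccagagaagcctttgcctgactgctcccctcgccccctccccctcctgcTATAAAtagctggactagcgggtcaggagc
The *Gabra5* window held none of the 5 motifs searched and 56.4% G and C bases. The *Gabra3* window shown held 1 TATA box, read on the opposite strand, and 42.4% G and C. The *Gabrb2* window shown held 1 TATA box close to its end, 1 GC box on the opposite strand and 58.8% G and C. RefSeq gives 3 windows for *Gabrb2* and 2 for *Gabra3*, of which the first is shown. The others of *Gabrb2* held none of the motifs and 54.0% and 36.8% G and C, and the other of *Gabra3*, which overlaps the one shown, held 1 TATA box and 39.2%. Over 32851 promoter windows of the same length, 12.4% held TATAAA and 32.7% held GGGCGG, and the median G and C content was 52.4%. The other motifs searched on both strands were TGACGTCA (1.55% of windows), GCGTGGGCG (0.536%) and CACGTG (6.02%). A match of letters is a description and not a binding site. RefSeq windows were matched for 6 of the 7 members, and *Gabrd* had no entry.

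Total counts were close to equal, from 37388177 to 37426572 per library. *Dlg1* had 4127, 4549, 3982 and 4690 normalized counts in the controls and 2353, 3064, 2143 and 2008 in SAP97-cKO libraries, so every library lay on the side its label gives (log2 fold change -0.86, SE 0.124, edgeR adjusted p = 0.143, past the FDR threshold of 0.25). The *Dlg1* counts cover the whole gene. The study's own checks were reads over exon 10, where it reports a much larger fall, and a western blot for each animal. Markers of CA1, CA3, dentate granule cells and interneurons were detected in every library, but so were those of every other list, so this does not test hippocampal identity. Several libraries stood apart from the rest. In cKO 2, summed dentate granule cell markers were at 10923 normalized counts against 14876 to 23305 in the other 7 libraries, while striatal markers were at 2168 against 710 to 1192 and cortical layer markers at 7022 against 4124 to 5753. In control 3, thalamic markers were at 7431 against 3630 to 5207, and 11 cerebellar genes, a list chosen after their values were seen, were at 21381 against 3975 to 5987. Control 4 was low for long genes and high for short ones. Choroid plexus markers ranged from 3704 to 255365 over the 8 libraries. Oligodendrocyte markers were at 204199 to 328888 in controls and 159787 to 288627 in SAP97-cKO. Meningeal fibroblast markers were lower in every SAP97-cKO library (6079 to 9787) than in any control (10036 to 17933). That last list holds genes the study names as changed in these same mice, so its separation was in part fixed by their choice. edgeR called 6 of its 10 genes lower, while *Dcn* was at a log2 fold change of -0.01.

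No subunit transcript passed the test for a difference between genotypes. The log2 fold changes (SAP97-cKO over control) lay from -0.09 for *Gabrd* to 0.29 for *Gabrb1*, with 6 above 0 and 1 below. With edgeR's quasi-likelihood test and Benjamini-Hochberg adjustment over all genes, 0 of 7 members passed an FDR of 0.25, where 0.295% of 16251 tested genes passed (0.283% lower and 0.0123% higher in SAP97-cKO), and limma-voom and DESeq2 also called 0 of 7. Blocking on replicate number, edgeR again called 0 of 7, and 1.58% of all tested genes. At an unadjusted p under 0.05, edgeR and limma-voom had 0 of 7 members and DESeq2 had 2 (*Gabrb1* and *Gabrb2*), where edgeR had 11.7% of all tested genes and DESeq2 12.6%. In 0 of 7 did the normalized counts of the groups separate without overlap, which 6.25% of all tested genes did. The median log2 fold change of the members was 0.09, beside -0.01 over all genes tested. In bulk tissue, fewer cells of a type and less RNA per cell cannot be told apart.

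**Figure D1:**
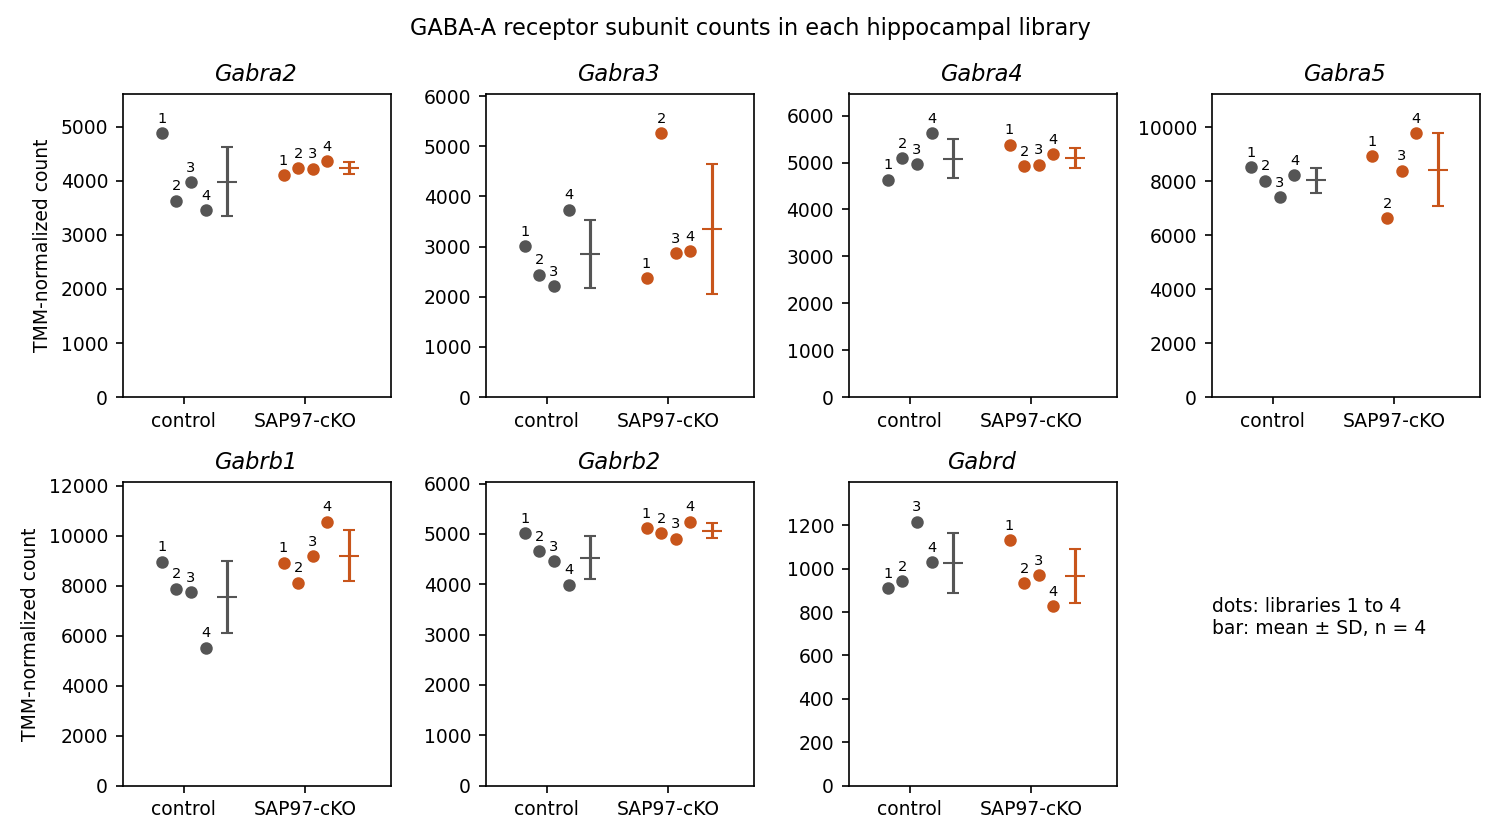
Normalized counts of the 7 subunit genes (y axes, from 0, 1 panel per gene) in each control (grey) and SAP97-cKO (orange) library, numbered 1 to 4, with the mean ± SD of 4 libraries as a bar. In each panel the groups overlap, and cKO 2 stands above the other 7 libraries for *Gabra3* while control 4 stands below them for *Gabrb1*.

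Levels were first compared between subunits per length of transcript, as normalized counts per kilobase of exon, scaled to the total of the library (RPKM). *Gabra5* led in controls with 72.4 ± 4.19 RPKM (SD, n = 4), and its lowest control library (66.7) was far above the highest of the next subunit, *Gabra4* (24.7). *Gabra4* had 22.3 ± 1.82 RPKM in controls, *Gabra3* 19.4 ± 4.62, *Gabrb2* 19.1 ± 1.81, *Gabrb1* 14.5 ± 2.78 and *Gabra2* 13.9 ± 2.22. Each of these overlapped with its neighbour in the order in its range over the control libraries. Within single control libraries, *Gabrb2* was above *Gabrb1* in 4 of 4, *Gabrb1* above *Gabra2* in 3 of 4, *Gabra4* above *Gabra3* in 2 of 4 and *Gabra3* above *Gabrb2* in 1 of 4. *Gabra4* was above *Gabrb1* and *Gabra2* with no overlap. *Gabrd* was lowest with 9.53 ± 1.28 RPKM, and its highest control library (11.3) lay below the lowest of *Gabra2* (12.1).

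The order in SAP97-cKO hippocampi began and ended with the same subunits. *Gabra5* had 75.9 ± 12.02 RPKM there, *Gabra3* 22.8 ± 8.84, *Gabra4* 22.4 ± 0.933, *Gabrb2* 21.3 ± 0.612, *Gabrb1* 17.8 ± 1.97, *Gabra2* 14.8 ± 0.373 and *Gabrd* 8.98 ± 1.16. *Gabra3* and *Gabra4* exchanged places, and their ranges overlapped in both groups, as did those of *Gabra4* and *Gabrb2* in SAP97-cKO. The ranges of *Gabrb2* and *Gabrb1* did not overlap in SAP97-cKO (lowest 20.6 and highest 20.4 RPKM), nor did those of *Gabrb1* and *Gabra2* (15.7 and 15.3). Dividing by the longest annotated transcript in place of all exons left *Gabra5* first, *Gabra4* second and *Gabrd* last in controls, and moved the other 4 members by 1 place each. In SAP97-cKO the same division put *Gabra2* (19.3 RPKM) above *Gabrb1* (17.9), with overlapping ranges, so their separation depended on the length used. The exon lengths used ranged from 2875 bp for *Gabrd* to 13838 bp for *Gabrb1*.

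**Figure D2:**
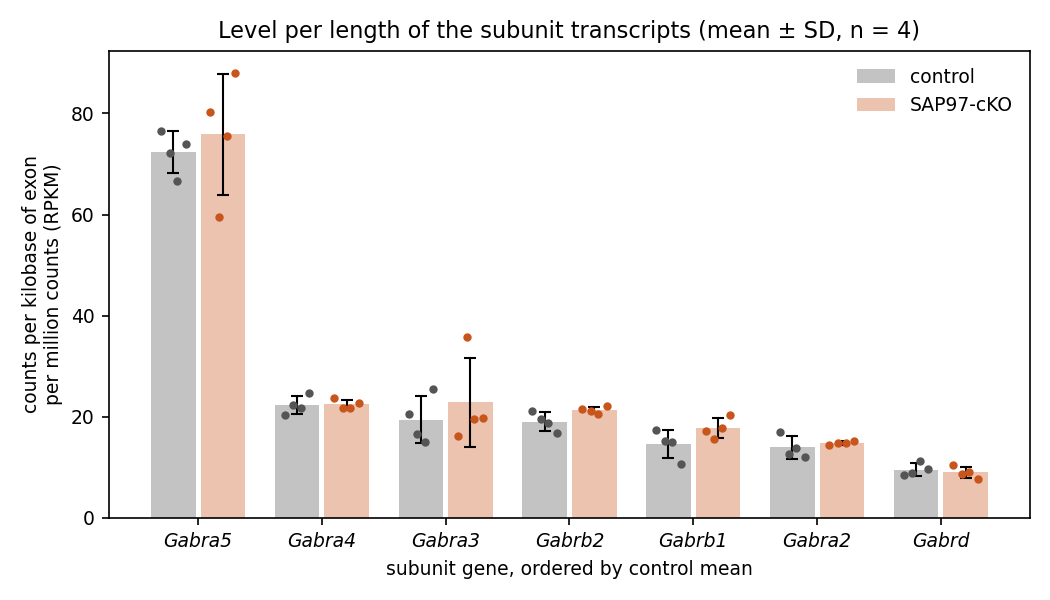
Level per length (y axis, RPKM) of each subunit gene (x axis, ordered by the control mean) in control (grey) and SAP97-cKO (orange) hippocampi, as bars of the mean ± SD of 4 libraries with a dot per library. *Gabra5* is above all other members in every library and *Gabrd* has the lowest mean in both groups.

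*Gabra5*, on the minus strand of chromosome 7 (57407672 to 57510059 of GRCm38), encodes the alpha-5 subunit of extrasynaptic receptors on pyramidal cells. It had 8520, 8032, 7418 and 8225 normalized counts in the controls and 8940, 6625, 8403 and 9790 in the SAP97-cKO libraries. Both the lowest library, cKO 2, and the highest, cKO 4, were SAP97-cKO, and the controls lay between them. The means were 8049 ± 466 and 8440 ± 1338 (SD, n = 4), and the log2 fold change was 0.07 (SE 0.109, 95% interval -0.17 to 0.31, edgeR adjusted p = 0.812). *Gabra5* made up 56.6% ± 1.65 of the summed RPKM of the 4 alpha members in controls and 55.7% ± 7.11 in SAP97-cKO, with 45.2% in cKO 2 and 57.4% to 60.3% in the other 3. Its exons overlap those of an antisense gene, *Gm9962*, over 148 bp (4.98% of its exon length), and the sources used here do not say if reads were counted by strand.

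*Gabra3*, on the minus strand of the X chromosome (72432681 to 72656848), encodes the alpha-3 subunit, known from the thalamic reticular nucleus, deep cortical layers and monoaminergic neurons more than from the hippocampus. It had 3009, 2444, 2209 and 3733 normalized counts in the controls and 2366, 5262, 2864 and 2911 in the SAP97-cKO libraries. cKO 2 was the highest of the 8, at 1.94 times the mean of the other 3 SAP97-cKO libraries, which all lay within the range of the controls. The means were 2849 ± 678 and 3351 ± 1298 (SD, n = 4), which is a log2 fold change of 0.23 (SE 0.242, 95% interval -0.30 to 0.77, edgeR adjusted p = 0.693). Without cKO 2 the log2 fold change was -0.07 (SE 0.167, edgeR adjusted p = 0.881), so its direction rested on that library.

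*Gabra3* also had the widest spread of the members. Its log2 CPM ranged over 1.251 across the 8 libraries, wider than in 98.7% of the 3910 genes within 2-fold of its mean count, whose median range was 0.375. The *Gabra3* share of the summed alpha RPKM was 27.2% in cKO 2 and at most 18.7% in the other 7 libraries. As given above, cKO 2 was also the library with the fewest counts of dentate granule cell markers and the most of striatal and cortical layer markers, and *Gabra5* was at its lowest there. The part of these markers in the *Gabra3* and *Gabra5* values was not tested.

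*Gabra2*, on the minus strand of chromosome 5 (70957597 to 71095849), encodes the alpha-2 subunit, found at synapses and at the axon initial segment of pyramidal cells. It had 4879, 3628, 3976 and 3455 normalized counts in the controls and 4105, 4231, 4218 and 4365 in the SAP97-cKO libraries. Control 1 was the highest and control 4 the lowest of the 8, and all 4 SAP97-cKO libraries fell between them. The means were 3985 ± 634 and 4230 ± 107 (SD, n = 4), giving a log2 fold change of 0.09 (SE 0.100, 95% interval -0.14 to 0.31, edgeR adjusted p = 0.730). Without control 1, *Gabra2* was called higher (log2 fold change 0.20, edgeR adjusted p = 0.227), in a fit that called 10.2% of all genes.

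*Gabra4*, on the minus strand of chromosome 5 (71569749 to 71658308), encodes the alpha-4 subunit, the usual partner of delta in dentate granule cells and thalamus. It had 4632, 5096, 4963 and 5627 normalized counts in the controls and 5376, 4922, 4951 and 5172 in the SAP97-cKO libraries. No library stood apart, and *Gabra4* was the steadiest member, with a log2 CPM range of 0.28 over the 8 libraries. The means were 5079 ± 414 and 5106 ± 212 (SD, n = 4), and the log2 fold change was 0.01 (SE 0.0716, 95% interval -0.15 to 0.17, edgeR adjusted p = 0.976). On the linear scale that interval runs from 0.900 to 1.12 times the control, the narrowest of the members.

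*Gabrb1*, on the plus strand of chromosome 5 (71658113 to 72149037), encodes the beta-1 subunit. It starts head to head with *Gabra4*, and the genes share 46 bp of exon sequence, 0.756% of the *Gabra4* exons. *Gabrb1* had 8957, 7878, 7749 and 5526 normalized counts in the controls and 8924, 8113, 9184 and 10562 in the SAP97-cKO libraries. Control 4 was the lowest of the 8, at 0.674 times the mean of the other 3 controls, and 2 of the 4 SAP97-cKO libraries lay above every control. The means were 7528 ± 1440 and 9196 ± 1019 (SD, n = 4), 122% of control, with a log2 fold change of 0.29 (SE 0.137, 95% interval -0.01 to 0.59, edgeR adjusted p = 0.435). An exact two-sided permutation test over the 70 assignments of libraries to groups gave p = 0.0857 for *Gabrb1*, where 0.0286 is the smallest it can give. The same test was run for all 7 members, and those other than *Gabrb1* and *Gabrb2* had p from 0.457 to 0.914.

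*Gabrb2*, on the plus strand of chromosome 11 (42419757 to 42629028), encodes the beta-2 subunit, a component of the most widespread synaptic receptors. It had 5020, 4658, 4456 and 3990 normalized counts in the controls and 5111, 5010, 4903 and 5245 in the SAP97-cKO libraries. Control 4 was again the lowest of the 8, control 1 lay among the SAP97-cKO libraries, and the SAP97-cKO libraries were close together. The means were 4531 ± 430 and 5067 ± 146 (SD, n = 4), which is a log2 fold change of 0.16 (SE 0.0751, 95% interval -0.01 to 0.33, edgeR adjusted p = 0.431, exact permutation p = 0.0857).

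Both beta members were lowest in control 4, the library in which long genes were low. There, the median log2 CPM relative to the mean of the 8 libraries was 0.28 for 512 genes under 2000 bp of exon and -0.30 for 1028 genes of 10000 bp or more (genes with a mean of at least 1000 counts), while the other 7 libraries had -0.09 to 0.01 and 0.00 to 0.10. *Gabrb1* (13838 bp of exon) was at -0.58 in control 4. *Gabrb2* (6360 bp) was at -0.26, where 2637 genes of 5000 to 10000 bp had a median of -0.12. Of the other members in that length class, *Gabra2* (7640 bp) was also at its lowest there (-0.24), and *Gabra4* (6083 bp) was at its highest (0.15). Without control 4, the log2 fold changes were 0.17 for *Gabrb1* (SE 0.0926, edgeR adjusted p = 0.488) and 0.11 for *Gabrb2* (edgeR adjusted p = 0.473). With a length offset per library, a step added after the data were seen, they were 0.21 for *Gabrb1* (SE 0.0911) and 0.14 for *Gabrb2* (SE 0.0591), with edgeR adjusted p of 0.391 and 0.389. Both estimates stayed above 0 and were smaller in each of these fits, and passed the threshold in neither. With the offset the SEs were smaller too, and both genes were at an unadjusted edgeR p under 0.05. In that fit 849 of 16251 tested genes were higher and 1199 lower at that p. Without control 1, both were called higher in edgeR (0.38 for *Gabrb1*, adjusted p = 0.234, and 0.21 for *Gabrb2*, adjusted p = 0.218). That fit called 10.2% of all tested genes.

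*Gabrd*, on the minus strand of chromosome 4 (155384980 to 155398112), encodes the delta subunit of extrasynaptic receptors, known from dentate granule cells, thalamus and cerebellar granule cells. It had 910.2, 943, 1217 and 1029 normalized counts in the controls and 1130, 932.5, 970.3 and 828 in the SAP97-cKO libraries. Control 3 was the highest and cKO 4 the lowest, and the groups overlapped over most of their range. The means were 1025 ± 137 and 965 ± 125 (SD, n = 4), giving a log2 fold change of -0.09 (SE 0.116, 95% interval -0.34 to 0.17, edgeR adjusted p = 0.769). In cKO 2, where dentate granule cell markers were lowest, *Gabrd* lay inside the range of the other SAP97-cKO libraries. Without control 3, where cerebellar and thalamic markers were highest, the *Gabrd* log2 fold change was 0.02 (edgeR adjusted p = 0.968). Whether the tissues behind any of these markers bear on the *Gabrd* values was not tested.

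**Figure D3:**
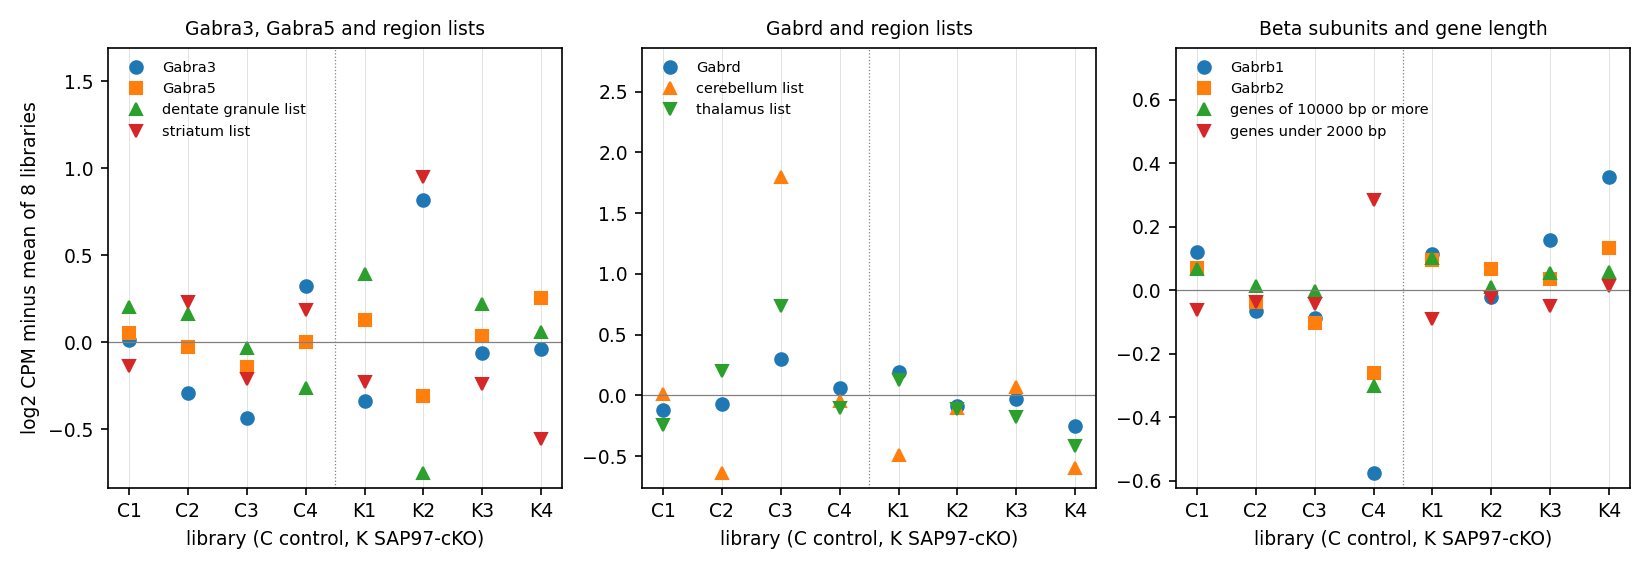
Log2 CPM of each library minus the mean of the 8 libraries (y axis) for members and for marker lists or gene length classes, by library (x axis, C control, K SAP97-cKO, replicates 1 to 4). Lists show the mean and length classes the median over their genes. *Gabra3* is high and *Gabra5* low in cKO 2, *Gabrd* is high in control 3, and *Gabrb1* and *Gabrb2* are low in control 4.

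**Figure D4:**
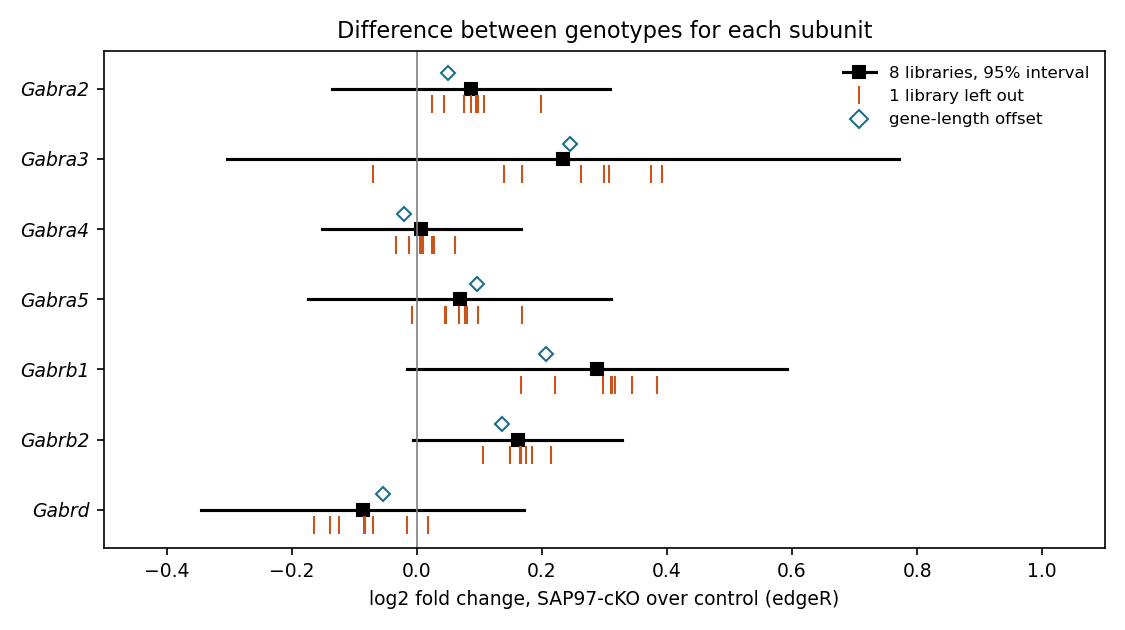
Log2 fold change of each member between SAP97-cKO and control (x axis), with the edgeR estimate and its 95% interval from 8 libraries (squares and lines), the estimates with 1 library left out (orange ticks) and the estimate with a gene length offset (diamonds). All 7 intervals include 0, and *Gabra3* has the widest.

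For each member, the tested gene whose log2 CPM followed it most closely over the 8 libraries was found by the root mean square difference after centring, with no test. *Pcdh1* lay closest to *Gabrb1* (0.0176) and *Rab11fip2* to *Gabrb2* (0.023). *Coil* was closest to *Gabra4* (0.0303), *Atxn7l1* to *Gabra2* (0.0364) and *A930004D18Rik* to *Gabra5* (0.0398). *Rprm* was closest to *Gabra3* (0.0548) and *Acot11* to *Gabrd* (0.0631). All of these distances are over the same libraries and share the library differences described above. The members' own root mean square deviations ran from 0.0802 for *Gabra4* to 0.381 for *Gabra3*, so the distances do not rank closeness between members.

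The table held 12 further GABA-A subunit genes, of which 9 passed the filter on low counts and 0 were called by edgeR. Of these 9, 2 had a log2 fold change above 0 and 7 below, with a median of -0.08, and at an unadjusted p under 0.05 there was 1 gene in each direction. The lower one was *Gabrr2*, a rho subunit gene, with 17.0 to 48.5 normalized counts in controls and 13.9 to 24.4 in SAP97-cKO (log2 fold change -0.82, edgeR adjusted p = 0.420). *Gabrg1* and *Gabrg3*, gamma subunit genes, had log2 fold changes of -0.08 and 0.12. *Gabre* and *Gabrq*, which encode epsilon and theta, stayed under 73 normalized counts in every library. *Gabra6*, the alpha-6 subunit gene typical of cerebellar granule cells, had 320, 59.8, 1695 and 246.5 normalized counts in the controls and 151.7, 248.8, 274.5 and 143.2 in the SAP97-cKO libraries. Its log2 fold change was -1.50 (SE 0.772, edgeR adjusted p = 0.458) and -0.02 without control 3.

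The proteins that make, place and clear GABA were described by a list of 44 genes, of which 42 were in the table and tested. edgeR called 0 of 42, with 9 higher and 2 lower at an unadjusted p under 0.05 (over all tested genes, 4.73% were higher and 7.01% lower). DESeq2 called 5 higher (*Nlgn2*, *Lhfpl4*, *Shisa7*, *Slc12a5* and *Hap1*). Over all 16251 tested genes DESeq2 called 6.36%, 445 of them higher and 588 lower. The log2 fold change was above 0 in 29 of 42 (69.0%), beside 47.2% of all tested genes, with medians of 0.09 and -0.01. The 7 pan-neuron markers had a median log2 fold change of 0.15, and *Snap25* and *Nefl* among them were at -0.03. Their summed normalized counts were 255408 to 280760 in controls and 266032 to 298039 in SAP97-cKO. The median was 0.29 for 5 CA1 markers, 0.11 for 5 CA3, 0.03 for 10 interneuron and 0.01 for 6 dentate granule cell markers. It was -0.47 for 6 oligodendrocyte markers, and 0 genes of these marker lists were called. The part of these markers in the values of the GABA list was not tested. Synthesis, release and uptake genes (7 genes) had a median of 0.01, none at an unadjusted p under 0.05. The scaffold and trafficking genes (24 tested) had 18 above 0 and a median of 0.12, the GABA-B receptor genes (5) had 4 above 0 and a median of 0.11, and the chloride transport genes (6) had 3 above 0 and a median of 0.05.

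The values of the genes at an unadjusted p under 0.05 follow, none of which passed the edgeR threshold. *Nlgn2*, the neuroligin of inhibitory synapses, had 9281, 8681, 8561 and 7016 normalized counts in controls and 9480, 9878, 10297 and 10394 in SAP97-cKO (log2 fold change 0.26, SE 0.0874, edgeR adjusted p = 0.355). All 4 SAP97-cKO libraries lay above the controls, as they did for *Lhfpl4*, *Slc12a5* and *Kctd16* below and for 451 of 16251 tested genes. *Lhfpl4*, which holds synaptic receptors in place with *Nlgn2*, had a log2 fold change of 0.28, and *Shisa7*, an auxiliary subunit, one of 0.39. *Slc12a5*, the chloride extruder KCC2, had 0.26, and *Gabbr2* and *Kctd16*, a GABA-B receptor subunit gene and an auxiliary one, had 0.26 and 0.31. *Hap1*, a trafficking adaptor, had 0.44, *Nlgn3* had 0.21 and *Iqsec3*, a gephyrin partner, had 0.19. The lower ones were *Slc12a2*, the chloride importer NKCC1, at -0.58 and *Rdx*, the anchor of alpha-5 receptors, at -0.15.

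Control 4, low for both beta members, was also the lowest of the 8 libraries in 8 of the 9 higher genes. These genes were chosen as higher in SAP97-cKO in the same libraries, so that the lowest was a control was largely fixed by their choice. Of those 9, 5 were still at an unadjusted edgeR p under 0.05 without control 4 and 8 were with the length offset. In these fits 778 of 16434 and 849 of 16251 tested genes were higher at that p. As the 9 were picked at that p from overlapping data, these counts are not a separate test. *Slc12a2* is also strongly expressed in choroid plexus, whose markers are given above, and the part of that tissue in its value was not tested. The most abundant genes of the list were the kinesin *Kif5a* (log2 fold change 0.18), *Nsf* (0.14) and *Gabbr1* (0.11), with edgeR adjusted p from 0.531 to 0.575.

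**Figure D5:**
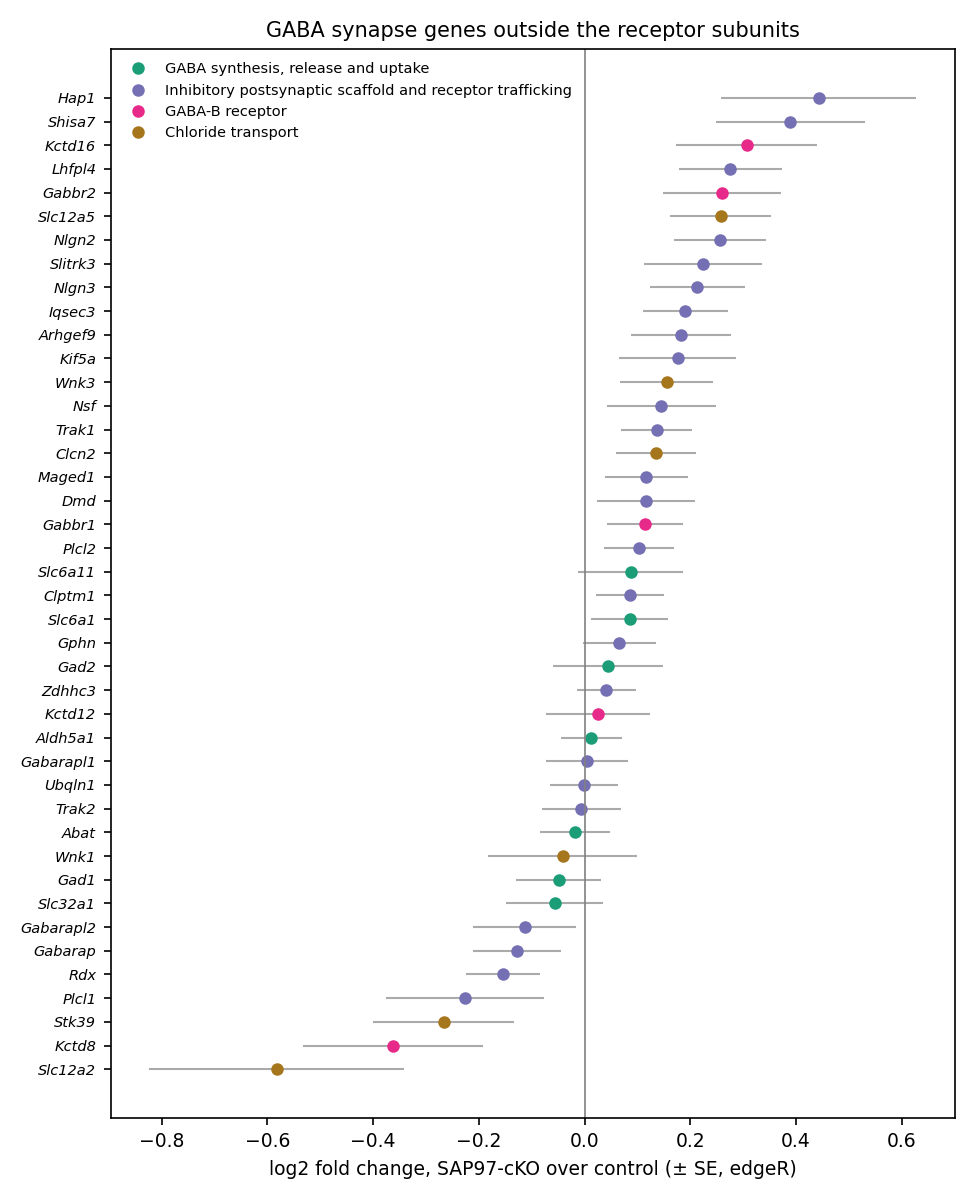
Log2 fold change (x axis, SAP97-cKO over control, ± SE from edgeR) of 42 genes of the GABA synapse list (y axis, ordered by value), coloured by role. Of these, 29 lie above 0 and 13 below, and 0 passed an FDR of 0.25.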

How the data were processed

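Hippocampal RNA of 8 male mice was sequenced (TruSeq). The authors aligned reads with STAR 2.5.3a to mm10 (GRCm38.p5), removed ribosomal and mitochondrial reads, resampled each library to a common depth and deposited whole-number counts per Ensembl gene. The log2 fold changes and p-values of their own comparison were also deposited by the authors and were not used. Genes were kept by filterByExpr (minimum count 10, minimum total 15), which left 16251 and removed 9583, and scaled by TMM. The genotypes were compared in R 4.3.3 by edgeR 4.0.16 (quasi-likelihood test) at an FDR of 0.25, adjusted by Benjamini and Hochberg over all tested genes. A normalized count is a count divided by its TMM factor, at the mean library size. Tested on simulated counts of this comparison (5 simulations, 16251 genes), the test called 69.5% of genes changed 1.6-fold, 84.4% changed 2-fold and 97.0% changed 4-fold, and 24.7% of calls were false. The noise was drawn for each gene on its own, without the library differences that many genes share in the real data. No change as small as those of the members was simulated, so these shares do not tell how often such changes would be called.

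The members and the gene lists were chosen with earlier results of these data known. Every member is named, as are the synapse list genes at an unadjusted p under 0.05 and its 3 most abundant, the nearest gene to each member, and further subunit genes past the filter, 3 of which are counted but not reported by name here. Genes were located in GENCODE M21 for GRCm38. Alternatives were limma-voom (limma 3.58.1), DESeq2 1.42.0 and its size factors, no scaling, other filters, the replicate block, an FDR of 0.05 and each library left out. Leaving out both control 3 and cKO 2, and an offset for exon length (lowess span 0.5, genes with a mean of at least 100 counts), were added after the data were seen. Same-numbered libraries had correlations of -0.062, 0.201, 0.0898 and 0.259 of their deviations from the group means, which is not over 0.1 in every pair, and no source says what a number marks, so the mice were not treated as paired. Plots were drawn with matplotlib 3.10.9.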

Additional observations from a re-analysis of the deposited data

Results flagged for a closer look

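In groups of 4 libraries, a value was singled out when its gap to the nearest other library was over Dixon's 95% critical share of the range of its group. Of 62 groups of 31 genes, 4 held such a value, and chance gives about 1 in 20 groups. None of the 4 was a member. *Gabra6* had 1695 normalized counts in control 3 against 59.8 to 320 in the other controls. *Gabrg1* had 1538 in control 4 against 1038 to 1096. *Kctd16* had 200.9 in control 4 against 269 to 279. *Nlgn3* had 1948 in cKO 4 against 2127 to 2161. *Gabra3* in cKO 2 came close, with a gap of 0.812 of the range.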

How the results depend on the processing

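With all 8 libraries, no alternative test, scaling or filter put a member past the threshold, and the lowest adjusted p was 0.350, for *Gabrb1*. Leaving out 1 library gave 0 to 3 members called, the 3 being *Gabra2*, *Gabrb1* and *Gabrb2* without control 1, where calls over all genes rose from 48 to 1675. The log2 fold changes then ranged from 0.024 to 0.20 (*Gabra2*), -0.070 to 0.39 (*Gabra3*), -0.034 to 0.061 (*Gabra4*), -0.0069 to 0.17 (*Gabra5*), 0.17 to 0.38 (*Gabrb1*), 0.11 to 0.21 (*Gabrb2*) and -0.16 to 0.018 (*Gabrd*). Without both control 3 and cKO 2, *Gabra3* was at -0.16 and *Gabrd* at 0.038. *Gabra4* was at -0.040 without scaling and -0.020 with the length offset. The cause of these changes was not tested. The replicate block was fitted although the numbers missed the criterion for pairing (5 of 8 libraries correlated best with their own number). It called 256 genes in all, 0 of them members, and gave *Gabrb1* 0.30 (edgeR adjusted p = 0.491). Over all genes, DESeq2 called 1033, no scaling 95, no filter 104, an FDR of 0.05 called 0 (1907 genes at an unadjusted p under 0.05), and 1 library left out 0 to 1675 (0 without control 2, cKO 3 or cKO 4). In the synapse list, DESeq2 called 5 and leaving out 1 library 0 to 8. Among other subunits, DESeq2 called 1 and leaving out 1 library 0 to 2. With the longest transcript as length, 3 of 7 members kept their place in the order. The precision that 4 mice a group give is that of the 95% intervals.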
